A study of Mus musculus with 2 samples.

Results

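Cultured THY-1+ germ cells exposed to FGF9 were ranked within a single culture by how many transcripts of 4 genes they held. The genes were Etv4, Etv5, Dusp6 and Spry4, which are induced when the extracellular signal-regulated kinase (ERK) is active. Cells of the FGF9-treated library were kept with at least 2000 genes detected, at most 20% mitochondrial UMIs (unique molecular identifiers, each standing for 1 captured transcript) and fewer than 40 UMIs of Vim plus S100a6, which mark the fibroblast feeders. Each cell was then thinned at random to 5000 UMIs, and the members were chosen by the summed UMIs of the 4 genes among these, which had to be 3 or more. There were 163 such cells, called high-count cells here, among 4515 FGF9-treated cells (3.61%, 95% interval 3.09 to 4.20) and 11271 barcodes in both libraries. They were set against the 2583 cells with 0 UMIs (57.2%), called no-count cells. A further 1289 cells held 1 UMI and 480 cells held 2 UMIs.

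The cells came from testes of male C57 LacZ pups in the days after birth, were sorted for the surface antigen THY-1 and were kept on fibroblast feeders of the mouse line STO. Such cultures are enriched for spermatogonial stem cells (SSC). The FGF9-treated culture received 20 ng/ml FGF9 for 48 h and the control culture 0 ng/ml. Both had been maintained with GDNF at 20 ng/ml, its co-receptor GFRA1 at 150 ng/ml and FGF2 at 1 ng/ml. Per the methods the medium was then exchanged for one holding FGF9 or albumin, and the labels leave unsaid whether GDNF and FGF2 stayed in it. The study describes its control as grown free of growth factors. There was 1 library per treatment, made from cells of several mice together, so a cell's animal is unknown and no treatment comparison has replicates. Cells are not replicates either. For these reasons no test was made, "higher" and "lower" describe these libraries, and every 95% interval covers counting error only. The FGF9-treated library held 72669787 UMIs in 5959 barcodes and the control library 71481926 UMIs in 5312 barcodes. Of these, 4537 and 4157 passed the filter, and 22 and 16 of them had too few UMIs to be thinned. The libraries shared 11 barcodes, 10 of them kept in both. Doublets were not sought with a caller and remain among the cells. Barcodes with over 2.5 times the median UMIs were 5 of 163 high-count cells (3.07%) and 57 of 2583 no-count cells (2.21%).

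FGF9 is a secreted ligand of the fibroblast growth factor (FGF) receptors. Occupied receptors recruit adaptors that activate RAS, and RAS drives the RAF, MEK and ERK kinases in turn. ERK then raises transcription of ETS-family factors of the PEA3 group, to which Etv4 and Etv5 belong, and of its own inhibitors: Dusp6 encodes a phosphatase that inactivates ERK, and Spry4 a Sprouty protein that dampens the signal between receptor and RAF. In spermatogonia the same cascade is also engaged by GDNF through its receptors GFRA1 and RET, and Etv5 is needed for the maintenance of SSC.

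The promoter windows of the genes that the results turn on are shown so that the ETS core letters, GGAA, can be seen in place. They are RefSeq sequences of the build GRCm38.p6, each with 250 bases before and 50 bases after a transcription start, printed along the gene's own strand. Entries were found for Etv5 (2 starts) and Dusp6 among the genes of the sum, and for Ier3 and Sohlh1. In the draw used, Ier3 and Sohlh1 were the highest and the lowest of the other genes of at least 50 CPM under the naming rule. Capitals mark GGAA on either strand, so that its complement appears as TTCC. The windows lie at chr16:22438319-22438618 and chr16:22439521-22439820 (Etv5, minus strand), chr10:99262981-99263280 (Dusp6, plus strand), chr17:35821463-35821762 (Ier3, plus strand) and chr2:25847199-25847498 (Sohlh1, minus strand).
Etv5, first window: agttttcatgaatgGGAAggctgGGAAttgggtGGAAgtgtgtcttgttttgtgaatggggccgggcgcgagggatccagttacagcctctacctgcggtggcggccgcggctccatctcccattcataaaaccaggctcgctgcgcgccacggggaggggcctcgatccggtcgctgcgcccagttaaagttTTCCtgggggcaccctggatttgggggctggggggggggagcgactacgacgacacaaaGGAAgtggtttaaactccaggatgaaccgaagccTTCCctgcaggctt
Etv5, second window: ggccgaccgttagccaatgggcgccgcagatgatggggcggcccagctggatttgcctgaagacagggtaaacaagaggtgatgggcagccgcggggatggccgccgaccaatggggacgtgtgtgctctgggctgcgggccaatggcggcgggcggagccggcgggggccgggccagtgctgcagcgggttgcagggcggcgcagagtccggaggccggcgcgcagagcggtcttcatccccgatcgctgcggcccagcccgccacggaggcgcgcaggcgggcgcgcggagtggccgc
Dusp6: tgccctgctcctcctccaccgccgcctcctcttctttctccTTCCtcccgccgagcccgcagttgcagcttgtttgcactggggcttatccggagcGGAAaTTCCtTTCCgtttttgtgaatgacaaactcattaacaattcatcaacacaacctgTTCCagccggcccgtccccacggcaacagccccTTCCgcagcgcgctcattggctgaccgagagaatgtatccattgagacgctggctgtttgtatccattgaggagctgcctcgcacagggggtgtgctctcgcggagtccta
Ier3: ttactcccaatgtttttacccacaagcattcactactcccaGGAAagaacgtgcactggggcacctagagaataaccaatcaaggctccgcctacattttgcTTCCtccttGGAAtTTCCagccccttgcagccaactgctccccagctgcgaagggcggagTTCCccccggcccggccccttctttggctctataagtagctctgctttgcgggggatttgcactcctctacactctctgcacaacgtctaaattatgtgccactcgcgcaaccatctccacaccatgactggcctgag
Sohlh1: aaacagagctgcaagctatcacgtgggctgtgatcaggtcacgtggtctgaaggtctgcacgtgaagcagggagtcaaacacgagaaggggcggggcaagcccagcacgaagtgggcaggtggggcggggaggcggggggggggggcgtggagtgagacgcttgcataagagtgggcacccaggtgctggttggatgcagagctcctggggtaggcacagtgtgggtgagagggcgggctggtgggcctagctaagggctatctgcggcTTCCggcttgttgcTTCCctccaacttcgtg
GGAA was found 6 times in the first Etv5 window, 0 times in the second, 6 times in the Dusp6 window, 5 times in the Ier3 window and 2 times in the Sohlh1 window. These 4 letters are common: 96% of the 32851 windows of 300 bases hold them on a strand. The longer form GGAAGT, sought on both strands and containing the core, was found 2 times in the first Etv5 window and 0 times in the other 4 windows, and it occurs in 23.8% of all windows. These are descriptions of letters, not of binding.

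The 4 genes were rarely seen in untreated cells. At the same depth, 1932 of 4515 FGF9-treated cells (42.8%, 41.3 to 44.2) and 174 of 4141 control cells (4.20%, 3.61 to 4.86) held at least 1 UMI of them. Cells with 3 or more were 163 of 4515 FGF9-treated cells and 2 of 4141 control cells (0.0483%, 0.00585 to 0.174). Among 63 barcodes that the feeder filter had removed from the FGF9-treated library, 16 held at least 1 UMI (25.4%) and 0 held 3 or more, which at 3 counts allows a share of up to 4.76%. The control library's 31 feeder-marked barcodes held 1 with a UMI. The number of UMIs in an FGF9-treated cell ran without a gap: 125 cells had exactly 3, 29 had 4, 6 had 5 and 3 had 6. The variance over the mean of the sum was 1.20 in FGF9-treated cells and 1.29 in control cells, where independent sampling of 1 shared level would give a value near 1. The control value includes 1 cell with 6 UMIs, beside 157 cells with 1, 15 with 2 and 1 with 3. No order of the cultures is read from it. Just inside the limit stood the 125 cells with 3 UMIs and just outside it the 480 cells with 2, so that most members lay 1 UMI from the limit.

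**Figure D1:**
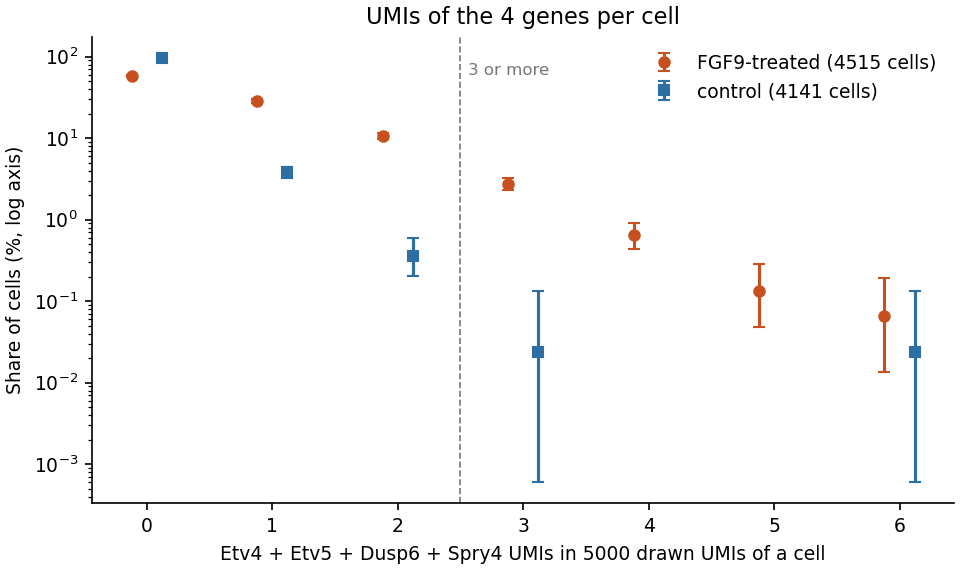
Share of cells (%, log axis) by the number of Etv4, Etv5, Dusp6 and Spry4 UMIs among 5000 drawn from each cell, for FGF9-treated cells (circles, 4515 cells) and control cells (squares, 4141 cells), with exact binomial 95% intervals; numbers with no cell are not drawn. The FGF9-treated shares become smaller with every further UMI, with 57.2% of cells at 0 and 0.0664% at 6, and show no gap at the limit of 3.

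Which of the 4 genes made a cell a member followed how many UMIs each gene had. Dusp6 was present in 142 of the 163 high-count cells, Etv5 in 92, Etv4 in 76 and Spry4 in 45. In 19 members a single gene supplied the whole sum, 97 members held 2 of the genes, 46 held 3 and 1 held all 4. Over all FGF9-treated cells the shares with a UMI were 22.3% for Dusp6, 14.1% for Etv5, 12.0% for Etv4 and 5.71% for Spry4, against 2.68%, 1.09%, 0.580% and 0.0724% in control cells. In the feeder-marked barcodes they were 14.3%, 3.17%, 9.52% and 3.17%. The genes themselves lie on mm10 chromosome 10 (Dusp6, 99263231 to 99267489, plus strand), chromosome 16 (Etv5, 22381309 to 22439719, minus strand) and chromosome 11 (Etv4, 101769742 to 101785371, minus strand).

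Because the rule used the 5000 drawn UMIs, the difference between the classes in those UMIs is no result. The UMIs left in each cell after the draw were not used, and in these the levels of the 4 genes were graded over the classes. Summed over the 4 genes they stood at 8.91 CPM (counts of the gene per 1000000 counts of the class) in the control class, and at 102, 128, 159 and 190 CPM in the FGF9-treated classes with 0, 1, 2 and 3 or more drawn UMIs. High-count cells thus exceeded no-count cells by a log2 ratio of 0.89 (0.71 to 1.07). No-count cells exceeded control cells by a log2 ratio of 3.52 (3.37 to 3.67). The undrawn UMIs of the no-count cells thus held these transcripts well above the control level, which goes against the name absent response for the class. Of the feeder-marked barcodes, 25.4% in the FGF9-treated library held a UMI of these genes, and the part of free RNA was not tested.

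Dusp6, Etv5 and Spry4 repeated this order, and Etv4 did so except between 1 and 2 drawn UMIs. In the undrawn UMIs the transcript of the phosphatase Dusp6 stood at 5.71 CPM in control cells and at 43.4, 54.2, 71.7 and 84.5 CPM in cells with 0, 1, 2 and 3 or more drawn UMIs. Its log2 ratio of high-count over no-count cells was 0.96 (0.68 to 1.23). The ETS factor Etv5 stood at 1.64 CPM in control cells and at 25.7, 28.9, 37.8 and 43.9 CPM over the same classes, a log2 ratio of 0.78 (0.39 to 1.14). Its relative Etv4 stood at 1.17 CPM in control cells and at 22.6, 31.0, 30.5 and 39.9 CPM, a log2 ratio of 0.82 (0.41 to 1.21), and its levels at 1 and 2 drawn UMIs had overlapping intervals. The Sprouty gene Spry4, with the fewest UMIs of the 4, stood at 0.384 CPM in control cells and at 10.4, 14.1, 18.5 and 21.3 CPM, a log2 ratio of 1.03 (0.45 to 1.56). Within the members, the summed level was 175 CPM (132 to 228) in cells with 4 or more drawn UMIs and 194 CPM (169 to 220) in cells with exactly 3, intervals that overlap.

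**Figure D2:**
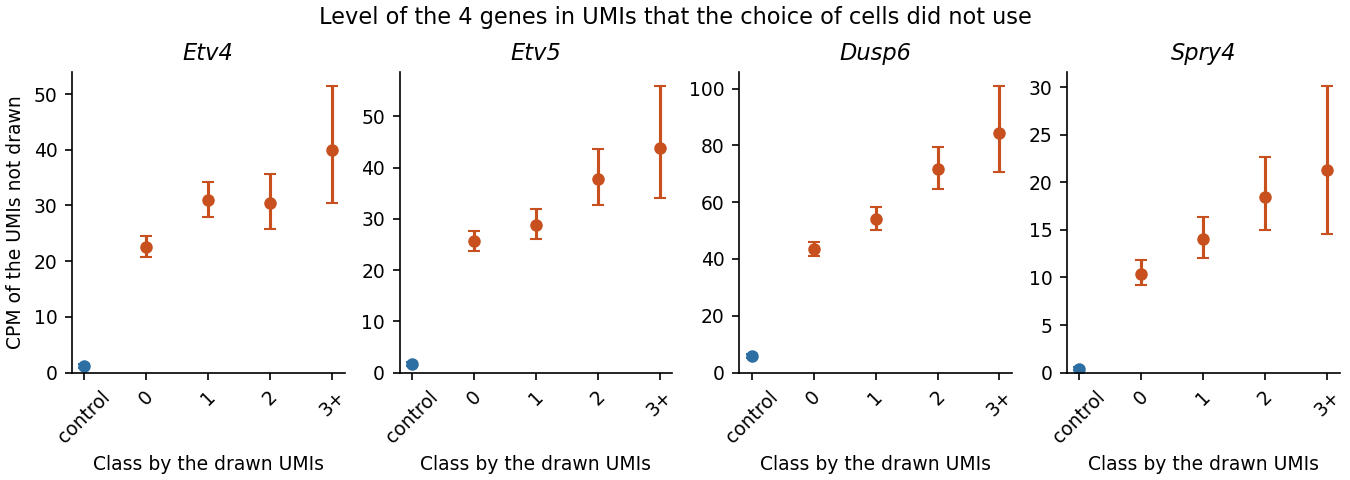
CPM of Etv4, Etv5, Dusp6 and Spry4 in the UMIs that were not drawn, by class: control, then the FGF9-treated classes of 0, 1, 2 and 3 or more (3+) UMIs of the 4 genes in the draw; points are class values and bars exact Poisson 95% intervals. No-count cells stand far above control, for Dusp6 at 43.4 against 5.71 CPM, and high-count cells at 84.5 CPM.

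The genes also went with each other. When 1 gene was left out of the sum and read in the undrawn UMIs of cells with 3 or more UMIs of the other 3, against cells with 0, its log2 ratio was 0.59 for Etv4 (0.14 to 1.00), 0.52 for Etv5 (0.05 to 0.95), 0.65 for Dusp6 (0.13 to 1.12) and 0.91 for Spry4 (0.36 to 1.42). All 4 intervals lay above 0. Membership itself was loosely held. In the cells with at least 10000 UMIs a second 5000 UMIs were drawn from what the first draw left. At least 1 UMI of the 4 genes was then found in 36.6%, 43.8%, 50.1% and 60.2% of the cells that had 0, 1, 2 and 3 or more in the first draw, and in 3.95% of control cells. Only 6 of 113 high-count cells reached 3 or more again (5.31%, 1.97 to 11.2), and 43 of 2053 no-count cells did so (2.09%, 1.52 to 2.81). Thinning afresh with 4 other random draws gave 146 to 152 members, and each shared 43 to 47 cells with the 163 used here (26.4% to 28.8% of these 163, 29.3% to 32.2% of the other set). The values below are therefore followed by their range over those 4 draws where they are named as leading.

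The classes were alike in size and quality. High-count cells had a median of 12664 UMIs, 4228 genes and 9.09% mitochondrial UMIs, and no-count cells 13138 UMIs, 4252 genes and 9.12%. They were germ cells by their markers: the RNA helicase gene Ddx4 stood at 402 CPM in high-count and 423 CPM in no-count cells, and the RNA-binding protein gene Dazl at 1889 and 1816 CPM. Over the germ cell identity list, 12 of 13 genes passed the filter of 20 CPM and their median log2 ratio was -0.06. Markers of other testis cells were near 0. The somatic testis list (Sertoli, Leydig and peritubular genes) summed to 25.9 CPM in high-count and 25.6 CPM in no-count cells, with 7 of 15 genes at 0 in high-count cells, and the macrophage list to 3.88 and 2.31 CPM, with 6 of 8 genes at 0. Of the feeder list, 4 of its 20 genes found passed the filter. All 4 were higher in high-count cells (56.5% of all genes), with a median log2 ratio of 0.46. They were Anxa2 (0.79, 0.62 to 0.96), Capg (0.53, 0.21 to 0.83), Fn1 (0.40, 0.12 to 0.67) and Lgals1 (0.37, 0.22 to 0.52). The list summed to 451 CPM in high-count, 324 CPM in no-count and 220 CPM in control cells, and 4 of its genes had 0 UMIs in high-count cells. Of its collagen and matrix genes below the filter, Col1a2 and Col3a1 had 1 and 0 UMIs in high-count cells, Col1a1 had 22 UMIs (log2 ratio -0.33, -1.02 to 0.28), Col5a1 30 UMIs (0.53, -0.06 to 1.08) and Sparc 26 UMIs (0.75, 0.11 to 1.33). Vim plus S100a6 averaged 0.681 UMIs in a high-count and 0.487 UMIs in a no-count cell. With cells limited to at most 5 of these UMIs, 161 high-count cells remained and the undrawn level of the 4 genes differed by a log2 ratio of 0.90. The part of free feeder RNA in single genes was not tested.

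Among genes outside the rule few differed by much. Of 6540 genes with at least 20 CPM over all FGF9-treated cells, 65 had a log2 ratio of high-count over no-count cells of at least 0.5 (0.994%) and 55 a ratio of at most -0.5 (0.841%). The median was 0.03, the central 98% of genes lay between -0.48 and 0.50, and 56.5% of genes lay above 0. With 163 cells on one side, these counts include genes whose ratio is wide by counting error, and 3 of the 55 genes and 0 of the 65 passed a ratio of 1 in size.

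The label of ERK response was checked first on 26 other genes known to follow ERK, none of them in the sum. All 9 that passed the filter were higher in high-count cells (56.5% of all genes), with a median log2 ratio of 0.37 beside 0.03 for all genes. Of the 9, 2 passed 0.5 (0.994% of all genes). Without the feeder filter, which puts 47 further barcodes among the no-count cells, this median was 0.04. Ier3, an immediate early gene whose human protein is an ERK substrate, stood at 230 CPM in high-count and 125 CPM in no-count cells, a log2 ratio of 0.88 (0.75 to 1.01), the highest of all genes above 50 CPM that the naming rule allowed. It was found among the 5000 drawn UMIs of 47.9% of high-count and 36.1% of no-count cells, and of 16.7% of control cells. The feeder-marked barcodes held it in 44.4%. Without thinning the shares were 78.5% of high-count and 60.3% of no-count cells. No cell dominated: the richest high-count cell carried 4.13% of the class's Ier3 UMIs. Over the 4 other draws the ratio of Ier3 lay between 0.67 and 0.83 and that of Nefm, named below, between 0.76 and 1.22. The top rank of Ier3 thus belongs to the draw used.

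The other 8 tested members of the ERK list had smaller ratios than Ier3. Phlda1, a pleckstrin-homology gene induced by growth factors, stood at 47.5 CPM in high-count and 28.4 CPM in no-count cells (log2 ratio 0.74, 0.45 to 1.03, other draws 0.52 to 0.80). It was detected in 24.5% of high-count and 12.2% of no-count cells and in 55.6% of the feeder-marked barcodes. Dusp5, a nuclear ERK phosphatase, stood at 50.9 and 36.5 CPM (0.48, 0.20 to 0.75), and Fos, an AP-1 subunit, at 101 and 77.0 CPM (0.40, 0.20 to 0.59). The feeder-marked barcodes held Dusp5 in 3.17% and Fos in 81.0%, against 33.1% of high-count and 24.7% of no-count cells for Fos. The feedback inhibitor Il17rd, also called Sef, had a ratio of 0.37 (0.11 to 0.63, other draws 0.36 to 0.45). Egr1 had a ratio of 0.23 (0.05 to 0.41). The intervals of Fosb, Ccnd1 and Spred1 spanned 0. A further 17 members were below the filter, of which 15 had a ratio above 0, 1 below 0 (Dusp2, -0.37, -1.84 to 0.80) and 1 no UMI in high-count cells. With no filter on level, 2704 genes passed 0.5 and 1519 passed -0.5. The share of all genes below the filter that lay above 0 was not computed, so nothing is read from the 15 of 17. Of these 17 the interval lay above 0 for Dusp4, an ERK phosphatase gene with 7 UMIs in high-count cells (2.14, 0.70 to 3.39), for Egr2 with 30 UMIs (0.63, 0.04 to 1.17) and for the RAS pathway inhibitor gene Spred2 with 67 UMIs (0.61, 0.23 to 0.98). The Sprouty relatives Spry1 and Spry2 had 30 and 16 UMIs and ratios of 0.34 (-0.24 to 0.88) and 0.38 (-0.46 to 1.11).

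Under the naming rule, which leaves out feeder-list genes, the 12 highest genes of at least 50 CPM were Ier3, Pfkp, Nefm, Nid2, Emb, Gfra1, Sgk3, Adgrl2, Rasl11a, Tpi1, Pcbp4 and Rpp14. The feeder-list gene Anxa2 had a ratio between those of Pfkp and Nefm, at 135 CPM in high-count and 78.3 CPM in no-count cells (0.79, 0.62 to 0.96). Of all genes of at least 50 CPM, 19 of 3728 passed a ratio of 0.5 (0.510%). Nefm, the medium neurofilament chain, stood at 289 CPM in high-count and 173 CPM in no-count cells, a log2 ratio of 0.74 (0.62 to 0.85, other draws 0.76 to 1.22). It was detected in 57.1% (49.1 to 64.8) of high-count and 37.9% (36.1 to 39.8) of no-count cells, and in 11.1% of the feeder-marked barcodes (81.0% and 58.2% of the high-count and no-count cells without thinning). Pfkp, the platelet form of the glycolytic enzyme phosphofructokinase, stood at 120 and 66.3 CPM (0.85, 0.67 to 1.03, other draws 0.55 to 0.77). Both genes were also far above control in the no-count cells, at 19.7 CPM for Nefm and 7.48 CPM for Pfkp in control cells.

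Several of the other leading genes encode surface or matrix proteins. Gfra1, the GDNF co-receptor, stood at 84.1 CPM in high-count and 52.8 CPM in no-count cells (0.67, 0.45 to 0.88, other draws 0.64 to 0.77). The basement membrane gene Nid2 stood at 98.8 and 60.6 CPM (0.70, other draws 0.33 to 0.50), Emb, a membrane partner of monocarboxylate transporters, at 109 and 66.8 CPM (0.70, other draws 0.55 to 0.70), and the adhesion receptor Adgrl2 at 95.8 and 63.2 CPM (0.60, other draws 0.38 to 0.62). Sgk3, a kinase downstream of phosphoinositide signalling, had a ratio of 0.61 (other draws 0.45 to 0.62), and the RAS-like gene Rasl11a of 0.58 (other draws 0.47 to 0.65). Rpp14, a subunit of RNase P, and Pcbp4, an RNA-binding protein, depended on the draw: their ratios of 0.54 and 0.55 came to 0.08 to 0.26 and 0.16 to 0.32 in the other 4.

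Under the naming rule the 12 lowest genes were Sohlh1, Rpl22l1, Txndc16, Gas5, Btg2, Sycp3, Zcchc14, Gnaz, Uchl1, Lima1, Eif4g3 and Ighm. Of all genes of at least 50 CPM, 9 of 3728 passed -0.5 (0.241%). Sohlh1, a basic helix-loop-helix factor that drives spermatogonia into differentiation, was the lowest. It stood at 55.2 CPM in high-count and 116 CPM in no-count cells, a log2 ratio of -1.06 (-1.33 to -0.81, other draws -1.03 to -0.55). It was detected in 33 of 163 high-count cells (20.2%, 14.4 to 27.2), in 926 of 2583 no-count cells (35.8%, 34.0 to 37.7) and in 58.8% of control cells, and in 0 of 63 feeder-marked barcodes. Without thinning it was found in 38.7% of high-count and 59.7% of no-count cells. Uchl1, a ubiquitin hydrolase abundant in spermatogonia, stood at 475 and 676 CPM (-0.51, -0.60 to -0.42, other draws -0.43 to -0.28). Sycp3, a component of the synaptonemal complex that is also transcribed before meiosis, stood at 125 and 184 CPM (-0.56, other draws -0.55 to -0.33), and the antiproliferative gene Btg2 at 73.4 and 109 CPM (-0.57, other draws -0.79 to -0.47). The ribosomal protein gene Rpl22l1 stood at 1224 and 1893 CPM (-0.63, -0.68 to -0.57, other draws -0.45 to -0.41). Ribosomal protein genes have near-identical copies, so its level is uncertain. Txndc16, Eif4g3, Gnaz, Lima1 and Zcchc14 varied with the draw and were smaller in size in all 4 other draws. Txndc16 had -0.61 here and -0.38 to -0.29 in those, and Eif4g3 had -0.50 and then -0.48 to -0.27. Gnaz lay between -0.50 and -0.12, Lima1 between -0.30 and -0.09 and Zcchc14 between -0.39 and -0.13. Ighm had -0.49 here and -0.94 to -0.46 in the other draws.

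With Dusp6 left out of the sum, which leaves 34 high-count cells, several of these ratios were smaller in size: 0.44 for Ier3, 0.33 for Pfkp, 0.31 for Nefm, 0.29 for Nid2, 0.20 for Gfra1 and -0.22 for Btg2. They were larger in size for Txndc16 (-0.95) and Eif4g3 (-0.90), both of which were smaller in the other draws. That of Sohlh1 was -1.10. These 24 genes were named from the extreme classes, so cells with 2 and with 1 UMI of the 4 genes give a look at them in cells that the naming did not use. The ratio of cells with 2 over cells with 1 UMI was above 0 for 11 of the 12 highest genes (52.5% of all genes of at least 50 CPM, 53.2% of those of at least 20 CPM) and below 0 for 11 of the 12 lowest (47.5% of all, 46.8% from 20 CPM). The medians were 0.20 and -0.11, beside 0.00 for all genes. Gfra1 and Sgk3 each reached 0.30 in this step and Sohlh1 -0.27 (-0.40 to -0.14). The exceptions were Rpp14 and Lima1.

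**Figure D3:**
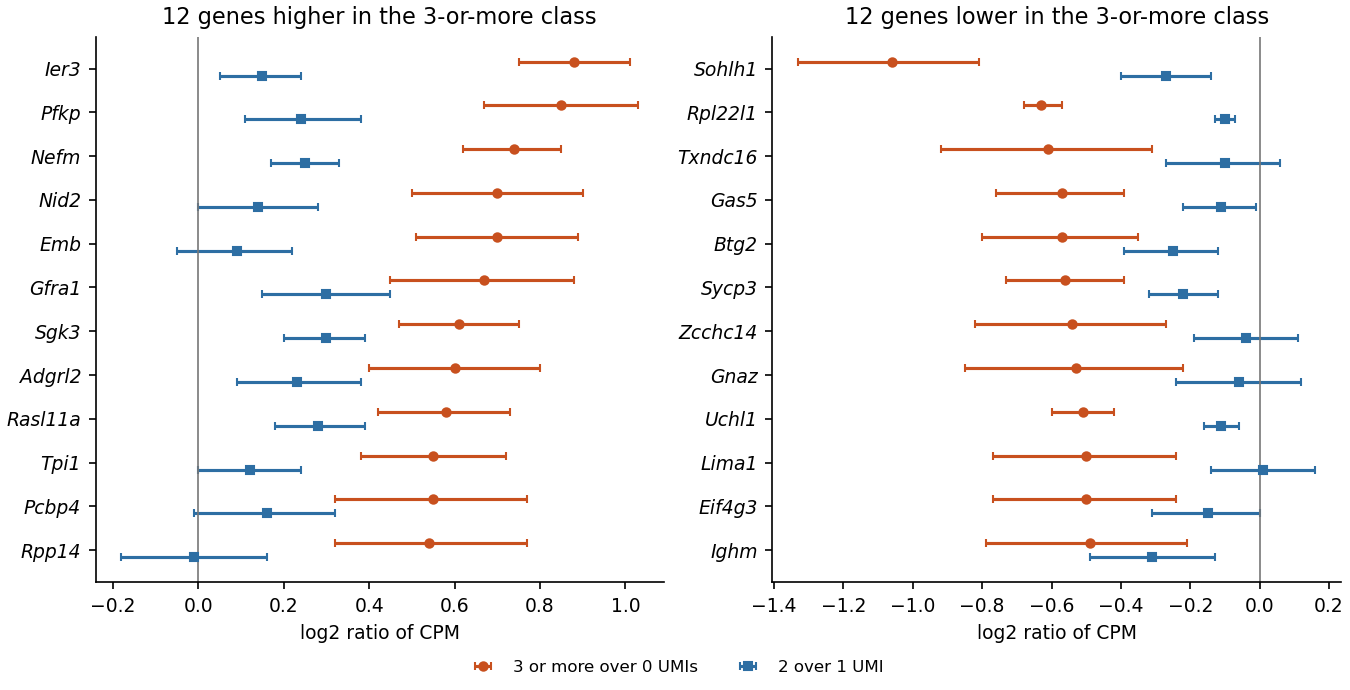
Log2 ratio of CPM for the 12 highest (left) and 12 lowest (right) genes under the naming rule, which leaves out feeder-list genes. Circles are cells with 3 or more over cells with 0 UMIs of the 4 genes, which chose the genes. Squares are cells with 2 over cells with 1 UMI, which were not used to choose them, and bars are exact conditional 95% intervals. The squares lie above 0 for 11 of the 12 genes on the left and below 0 for 11 of the 12 on the right.

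Genes of the GDNF pathway and of SSC split. Lhx1, a transcription factor gene induced by GDNF in cultured spermatogonia, stood at 41.9 CPM in high-count and 21.3 CPM in no-count cells, a log2 ratio of 0.97 (0.65 to 1.28, other draws 0.59 to 0.95), and the D-type cyclin gene Ccnd2 at 384 and 279 CPM (0.46, 0.36 to 0.56). Pou3f1, another GDNF-induced factor gene, was level at 137 and 140 CPM. Of 7 SSC markers above the filter all lay above 0 (56.5% of all genes) but only 2 passed 0.5 (0.994% of all), and the median was 0.08. The 2 were Gfra1 and Esrp1, a splicing regulator gene, at 62.1 and 39.9 CPM (0.64, 0.38 to 0.88). Ret, the signalling receptor for GDNF, stood at 106 CPM in high-count and 102 CPM in no-count cells (0.05, -0.14 to 0.23, other draws 0.11 to 0.20). Id4 stood at 22.4 and 20.9 CPM (0.10, -0.33 to 0.51). Bcl6b, a repressor gene downstream of GDNF, was below the filter with 17 UMIs in high-count cells (0.56, -0.25 to 1.28).

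Markers of later spermatogonia did not move as a group. Of the progenitor list 6 genes were tested, with a median of -0.01, and 1 passed -0.5, the RNA-binding protein gene Lin28a at 17.3 CPM in high-count and 25.2 CPM in no-count cells (-0.55, -1.04 to -0.09). Of the differentiating list 6 genes were tested, with a median of 0.02, and Sohlh1 was the single gene past -0.5. Its partner gene Sohlh2 ran the other way, at 81.1 and 59.6 CPM (0.45, 0.22 to 0.66), as did Lmo1 at 62.6 and 45.2 CPM (0.47, 0.22 to 0.72). Stra8, a retinoic acid target, had 23 UMIs in high-count cells and a ratio of 0.81 (0.12 to 1.44). Kit, the receptor gene of differentiating spermatogonia, had 7 UMIs there (0.04, -1.31 to 1.13), and its level was not resolved at this depth. Of 5 meiotic genes 1 passed -0.5, Sycp3, while Sycp1 stood at 383 and 398 CPM.

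Levels across control and the FGF9-treated classes ran in several ways, given here in words with no test. Some genes were stepped: Nefm stood at 19.7 CPM in control cells and at 173, 223, 265 and 289 CPM in cells with 0, 1, 2 and 3 or more UMIs. Uchl1 stood at 1345 CPM in control cells and at 676, 636, 590 and 475 CPM over the classes, and Adm, the adrenomedullin gene, at 2.78 CPM and then 33.5, 36.8, 43.3 and 63.9 CPM. These genes also differed more between the cultures. No-count over control cells gave log2 ratios of 3.14 for Nefm, -0.99 for Uchl1 and 3.59 for Adm, and high-count over no-count cells 0.74, -0.51 and 0.93. Others differed between the cultures with no such step across the classes of the draw used. Ret stood at 34.8 CPM in control cells and at 102, 104, 114 and 106 CPM over the classes. The progenitor gene Sox3 stood at 98.3 CPM in control cells and at 37.5, 38.1, 34.6 and 37.5 CPM. Neurog3, another progenitor gene, stood at 44.6 CPM and then 14.6, 13.7, 13.9 and 18.1 CPM, and Kit at 13.4 CPM and then 2.94, 3.39, 2.70 and 3.02 CPM, the last of these from 7 UMIs. The no-count cells stood apart from control by a log2 ratio of at least 1.39 in size for these 4 genes. High-count over no-count cells gave 0.05 for Ret (-0.14 to 0.23), 0.00 for Sox3 (-0.33 to 0.31) and 0.31 for Neurog3 (-0.18 to 0.76), and was not resolved for Kit. Over the 4 other draws the ratio of Ret lay between 0.11 and 0.20, and with Dusp6 left out of the sum it was -0.57. Cells with 2 over cells with 1 UMI gave 0.13 (0.02 to 0.25) for Ret. Other genes ran otherwise. Rpl22l1 stood at 1810 CPM in control cells and at 1893, 1688, 1574 and 1224 CPM over the classes, Pcbp4 at 48.1 CPM and then 52.8, 53.2, 59.4 and 77.2 CPM, and Lmo1 at 63.3 CPM and then 45.2, 55.1, 57.1 and 62.6 CPM.

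**Figure D4:**
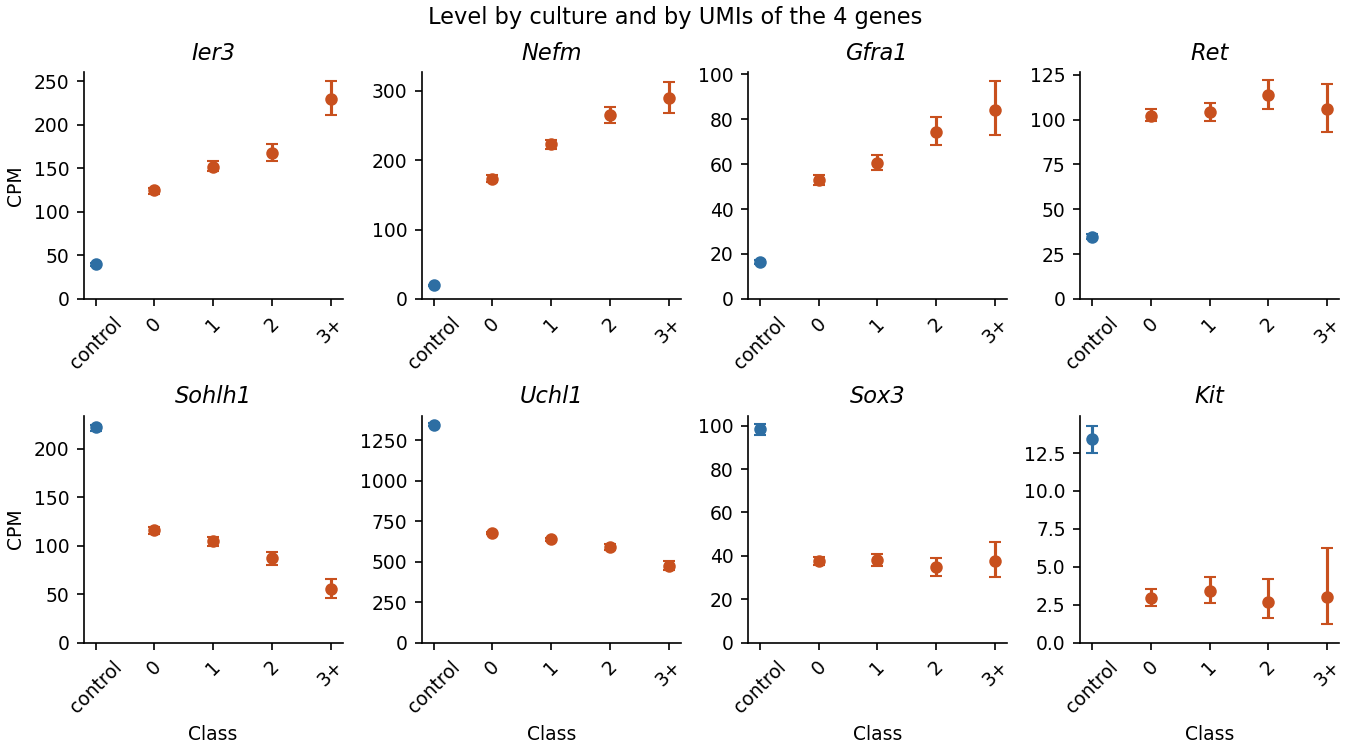
CPM of 8 genes by class: control, then the FGF9-treated classes of 0, 1, 2 and 3 or more (3+) UMIs of Etv4, Etv5, Dusp6 and Spry4; points are class values over all UMIs and bars exact Poisson 95% intervals. Ier3, Nefm and Gfra1 step up and Sohlh1 and Uchl1 step down across the classes. Ret and Sox3 differ between the cultures with no such step in the draw used. Other draws gave log2 ratios of 0.11 to 0.20 for Ret, high-count over no-count cells. Ier3, Nefm, Gfra1 and Uchl1 also differ more between control and no-count cells than between no-count and high-count cells. Kit differs between the cultures, and its value at 3+ rests on 7 UMIs.

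The lists of receptors and of the cascade above ERK had medians near that of all genes, 0.03, while Fgfr1 was higher in high-count cells. Of 22 FGF receptor, adaptor and proteoglycan genes 6 passed the filter, with a median log2 ratio of -0.01, and 0 passed 0.5 in size. Fgfr1, the one FGF receptor kinase gene above the filter, stood at 77.2 CPM in high-count and 56.9 CPM in no-count cells (0.44, 0.21 to 0.66). This ratio was above the 95th percentile of all genes, 0.32. Fgfr1 stood at 67.2 CPM in control cells and at 56.9, 58.0, 67.6 and 77.2 CPM over the classes. Cells with 2 over cells with 1 UMI gave 0.22 (0.07 to 0.37) for it. Fgfr2, Fgfr3 and Fgfr4 had 5, 2 and 0 UMIs in high-count cells. Of 17 genes of the RAS to ERK cascade 14 were tested, with a median of 0.07 and 0 past 0.5. The 2 largest were the ERK-activated kinases Rps6ka3 (0.48, 0.17 to 0.78) and Rps6ka1 (0.47, 0.08 to 0.84), while Map2k1, Map2k2 and Mapk3, kinases of the core, had ratios between -0.08 and -0.06 with intervals spanning 0.

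The glycolysis and the Id and BMP lists had medians of 0.28 and 0.20. Of all genes tested 56.5% lay above 0 and 0.994% passed 0.5. Of 16 glycolysis genes tested 12 were above 0, and 3 passed 0.5. Besides Pfkp these were Tpi1, triosephosphate isomerase, at 133 CPM in high-count and 91.0 CPM in no-count cells (0.55, other draws 0.30 to 0.69), and the glucose transporter gene Slc2a3 at 78.5 and 54.4 CPM (0.53, other draws 0.58 to 0.69). Tpi1 was detected in 85.7% of the feeder-marked barcodes and Slc2a3 in 1.59%. Of 5 Id and BMP genes tested 2 passed 0.5: Id3, an inhibitor of helix-loop-helix factors, at 73.8 and 38 CPM (0.96, 0.72 to 1.19, other draws 0.66 to 0.81), and the inhibitory gene Smad7 at 30.6 and 21.2 CPM (0.53, 0.16 to 0.88). Id1 stood at 30.2 and 32.6 CPM (-0.11, -0.48 to 0.24), Smad5 had a ratio of -0.15 (-0.58 to 0.24), and the list's median was that of Bmpr1a, a BMP receptor gene (0.20, -0.05 to 0.44). The richest high-count cell held 8.77% of the Id3 UMIs. Of 4 basement membrane and integrin genes tested all were above 0, with a median of 0.23. Of 3 neurofilament genes tested Nefm passed 0.5 and Nefh stood at 81.1 and 84.6 CPM.

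Cell cycle genes gave a mixed picture, set beside the 56.5% of all genes tested that lay above 0. Of 19 S phase genes tested 18 were above 0, with a median of 0.16 (other draws 0.01 to 0.19) and 1 past 0.5, Rrm2, a ribonucleotide reductase subunit gene, at 29.8 CPM in high-count and 20.5 CPM in no-count cells (0.54, 0.16 to 0.89). Of 23 G2/M genes 11 were above 0, with a median of -0.00 (other draws -0.00 to 0.29). The kinase subunit gene Cks2 stood at 374 and 469 CPM (-0.33, -0.43 to -0.23) and the centromere protein gene Cenpf at 793 and 934 CPM (-0.24, -0.31 to -0.17). Mki67, a marker of cycling cells, was detected in 27.0% (20.3 to 34.5) of high-count and 25.0% (23.3 to 26.7) of no-count cells at equal depth, against 9.68% of control cells, and without thinning in 35.6% of high-count and 36.9% of no-count cells, so no order is read from it. Of 7 G1 genes tested 6 were above 0, with a median of 0.16 and 0 past 0.5.

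**Figure D5:**
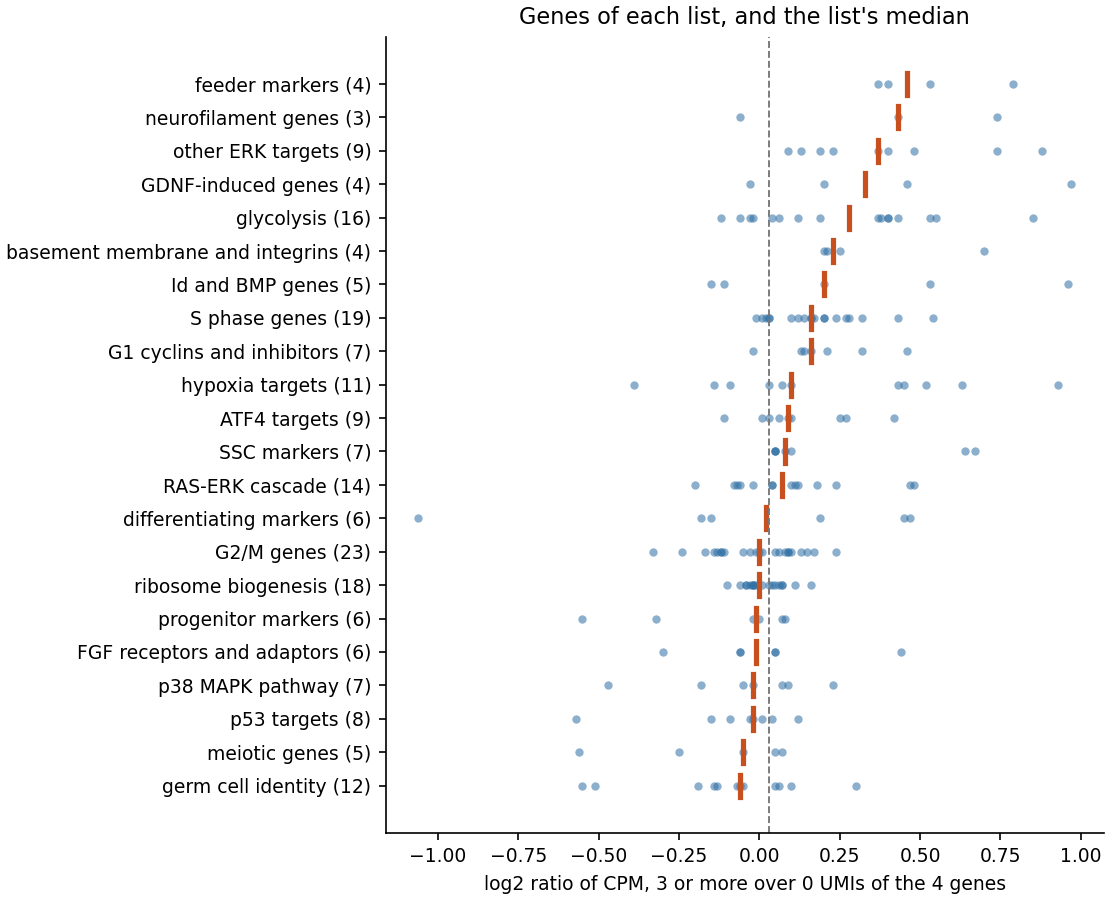
Log2 ratio of CPM, cells with 3 or more over cells with 0 UMIs of the 4 genes, for each gene of at least 20 CPM in 22 gene lists (points; the number tested in parentheses), with each list's median (bar) and the median of all 6540 genes, 0.03 (dashed line). The medians lie between 0.46 for the feeder markers and -0.06 for germ cell identity, and the ERK targets stand at 0.37 (0.04 without the feeder filter).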

How the data were processed

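Droplet single-cell libraries (10x Chromium 3' kit with a KIT antibody tag) were analysed, 1 per treatment. The deposited files give raw UMI counts for every gene in every barcode. The authors aligned and counted reads with Cell Ranger (3.1.0 in the matrix header) on mm10, and Seurat 3.1 is named for later steps. Each matrix holds 32285 genes.

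From these counts, cells were filtered, thinned without replacement to 5000 UMIs (seed 11) and classed by the summed UMIs of the 4 genes. CPM used all UMIs of a class's cells, except where undrawn UMIs are named. Genes of at least 20 CPM over all kept FGF9-treated cells, whichever class they came from, were compared. Ratios have exact conditional binomial, levels exact Poisson and shares exact Clopper-Pearson 95% intervals. PCR duplicates are collapsed by UMI. Steps were tested on simulated data. Scripts ran in Python 3.11.15 with pandas 2.3.3, matplotlib 3.10.9, numpy 2.4.6 and scipy 1.17.1.

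The members, gene lists and rules were chosen with earlier results of these data known. Named genes were the 4 of the sum; the 12 highest and 12 lowest ratios of at least 50 CPM, without predicted genes, clone names, mitochondrial and feeder-list genes; the largest ratios in size of a list, 4 at most; and a further set shown at every class. Genes outside this rule (such as Il17rd, Egr1, Spry1, Spry2, Ddx4, Dazl, Mki67 and Rps4x) were named after their values were seen. Gene positions are from a GENCODE annotation of mm10. Alternatives were other draws, depths, limits, sums, filters and scales. A withheld item is not reported here.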

Additional observations from a re-analysis of the deposited data

How the results depend on the processing

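No paired analysis was possible because each treatment has a single library and no value comes from a test. Of 850 recomputed ratios of 34 named genes, 842 had the sign of the ratio reported and 160 lay outside its counting interval. Settings that changed only the filter on level left the ratio of each gene unchanged by construction. Limiting Vim plus S100a6 to under 20 UMIs kept 163 high-count and 2582 no-count cells, so its ratios could barely differ either. Part of the 842 was thus fixed in advance and is no evidence of stability. Of these 160, 15 came without Dusp6 in the sum and 19 with a minimum sum of 2. The 4 other draws under the same rule gave 13, 10, 11 and 17 of them, each out of 34 ratios. The counting intervals thus leave out the spread between draws. The 8 ratios with another sign were 4 of Ret, whose log2 ratio of 0.05 lay between -0.57 and -0.01 in them, and 4 of Ccnd1. Those of Ccnd1 were 0.00 with 8000 UMIs per cell or without Etv4 in the sum, and -0.37 without the feeder filter and -0.22 in cells with S and G2/M UMIs above the median, against 0.13. Other settings raised Ccnd1: it lay between 0.19 and 0.45 in the 4 other draws and at 0.47 without Dusp6 in the sum. Depth limits the members: a sum of 3 rests on 3 UMIs, and 163 cells hold few UMIs of genes near 20 CPM. Alternatives by Rps4x UMIs, by at most 5 Vim plus S100a6 UMIs and by a second draw were added after seeing the data. The cause of the changes below was not tested, save for 2 effects by construction. Fewer cells widen the ratios, and a lower filter on level lets in genes with wider ratios.

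With another draw, the G2/M median was 0.29, 0.28 or 0.21 in 3 of 4 draws, the S phase median 0.01 or 0.05 in 2, the progenitor median -0.18 in 1 and the differentiating median 0.16 in 1. With 8000 UMIs per cell, 9.26% of cells were high-count, 17 genes were lower, and the G2/M and S phase medians were 0.14 and 0.06. Without thinning, 26.5% were high-count, 126 genes were higher, and the G2/M, S phase and SSC medians were 0.19, 0.23 and 0.22. Read in all UMIs, the 4 genes differed by a log2 ratio of 2.40, which includes the drawn UMIs.

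With a minimum sum of 2, the share was 14.2%, 12 genes were higher and 2 lower, the undrawn ratio was 0.70, and the ERK target and G2/M medians were 0.22 and 0.05. With a minimum of 4, the share was 0.842% (38 cells), 329 genes were higher and 439 lower, and the ERK target, G2/M and S phase medians were 0.59, -0.34 and -0.18. Without Etv4 in the sum, the share was 2.17%, 119 genes were higher and 105 lower, and the G2/M and S phase medians were -0.12 and 0.05. Without Etv5 these were 1.88%, 119, 173, 0.06 and 0.08. Without Dusp6 they were 0.753%, 297, 564, -0.26 and -0.08, and the undrawn ratio was 0.59. Without Spry4 the share was 2.83% and the ERK target median 0.26.

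Without the feeder filter, 112 genes were lower and the ERK target median was 0.04. Without the high-UMI barcodes, the S phase median was 0.10. In cells with S and G2/M UMIs up to the median, 208 genes were higher and 231 lower, the undrawn ratio was 1.18, and the ERK target, G2/M and S phase medians were 0.54, -0.42 and 0.10. In those above it, 98 and 122 genes, 0.69, and medians of 0.23 and 0.08 for ERK targets and G2/M were found. In cells with at most 3 Rps4x UMIs, the share was 4.37%, 86 genes were lower, and the G2/M and S phase medians were -0.14 and 0.08. In cells with over 3, the share was 2.43%, 306 genes were higher and 398 lower, the undrawn ratio was 1.11 and the ERK target median 0.54.

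Genes of at least 10 CPM gave 168 higher and 184 lower, and no filter 2704 and 1519 with an SSC median of 0.30. Genes of at least 50 CPM gave 19 and 9, an ERK target median of 0.23 and a differentiating median of -0.16. A ratio of 1 in size was passed by 0 genes higher and 3 lower.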

Other observations

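The KIT surface tag did not separate the classes. High-count cells had a median of 300 tags and no-count cells 313, while control cells had 439.

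The stress, metabolic and ribosome lists gave these log2 ratios of high-count over no-count cells. Of all genes tested 56.5% lay above 0 and 0.994% passed 0.5, so counts near these shares are no result about a list. Of 11 hypoxia targets tested 8 were above 0 and 3 passed 0.5, with a median of 0.10. The 3 were Adm at 63.9 CPM in high-count and 33.5 CPM in no-count cells (0.93, 0.68 to 1.18, other draws 0.54 to 0.92), the stress-response gene Ndrg1 at 46.2 and 29.8 CPM (0.63, 0.33 to 0.92) and Ankrd37 at 221 and 155 CPM (0.52, 0.39 to 0.65). Of 9 ATF4 targets 8 were above 0, with a median of 0.09, and Psat1, an enzyme of serine synthesis, had the largest ratio at 0.42 (0.17 to 0.66). Of 8 p53 targets 3 were above 0, with a median of -0.02, and Btg2 alone passed -0.5. Of 7 genes of the p38 pathway 3 were above 0, with a median of -0.02, and 0 passed 0.5 in size. Of 18 ribosome biogenesis genes 9 were above 0, with a median of 0.00 and a range of -0.10 to 0.16. The ribosomal protein gene Rps4x stood at 500 CPM in high-count and 686 CPM in no-count cells (other draws -0.51 to -0.38), and the small nucleolar RNA host Gas5 at 108 and 161 CPM (-0.57, other draws -0.53 to -0.22).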
